A study of Mus musculus with 2756 samples.

Results

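Notch signalling was followed here through 10 genes in dye-labelled cells of embryonic mouse cortex: the receptors Notch1 and Notch2, the ligands Dll1 and Dll3, the fringe enzymes Mfng and Lfng, and the transcription factors Hes1, Hes5, Hey1 and Hes6. The genes were chosen by name as members of the pathway, not by a threshold on their values, although earlier results of these data were known. All 10 were found among the 16441 genes of the read count table. The table held 2756 single cells from the putative primary somatosensory cortex, labelled with FlashTag, a dye taken up by cells dividing at the ventricular surface. Injections were made on embryonic days 12, 13, 14 and 15 (E12 to E15), and cells were taken 1, 24 or 96 h afterwards, which made 12 conditions of 134 to 301 cells. Within the dissociated tissue, the brightest labelled cells were sorted. No genotype, strain, sex or drug was given in the sources used here, and no label named an animal, so the p-values below measure only the spread between these sums, which may be technical.

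Notch is a receptor on the cell surface that is cut when a Delta ligand on a neighbouring cell binds it, and the released fragment enters the nucleus, joins the DNA-binding protein Rbpj and switches on Hes and Hey genes. The Hes and Hey proteins repress proneural genes, so in the developing cortex the cell that receives the signal stays a progenitor while its Delta-expressing neighbour goes on to differentiate. Fringe enzymes add sugars to Notch and change how well it answers different ligands.

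Cells were read by the clusters that the authors gave in the labels, which were named by class: apical progenitors (AP, 843 cells), basal progenitors (BP, 228), neurons typical of 1 day after labelling (N1d, 669), neurons typical of 4 days (N4d, 709), interneurons (IN, 243) and astrocytes (Astro, 64). Markers of each class were highest in the class they name. Summed markers reached 5482 CPM (counts per M counts) in AP for the AP list, 2821 CPM in BP for the BP list and 7355 CPM in N1d for the young neuron list. The same sums were 3907 CPM in N4d for the list of four-day neurons, 1742 CPM in IN for the interneuron list and 4342 CPM in Astro for the astrocyte list, the AP list being an exception with 19585 CPM in Astro. Astro cells also held 169.9 CPM of pericyte markers (2 of 5 in the table) and 142.8 CPM of oligodendrocyte precursor markers (2 of 5), and their part in the Astro values was not tested. A condition held 52.3 to 99.0 M counts and a cell a median of 328909 counts. Levels are compared within a gene only, since the counts were not scaled to gene length.

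The promoters of the Notch-answering genes can be searched for the letters that Rbpj binds, TGGGAA, on either strand. RefSeq promoters, from 250 bases before to 50 after the start, were matched for 7 of the 10 genes. Hes5 and Lfng each held 2 copies, and Hes6, the only other Hes gene matched, held none in its 2 entries, the first of which is shown for contrast. Capitals mark TGGGAA or its reverse complement TTCCCA. The coordinates are those of GRCm38.p6 and the genes lie on the plus strand for Hes5 and Lfng and on the minus strand for Hes6. The windows are chr4:154960673-154960972 for Hes5, chr5:140607091-140607390 for Lfng and chr1:91413989-91414288 for Hes6.
Hes5 promoter: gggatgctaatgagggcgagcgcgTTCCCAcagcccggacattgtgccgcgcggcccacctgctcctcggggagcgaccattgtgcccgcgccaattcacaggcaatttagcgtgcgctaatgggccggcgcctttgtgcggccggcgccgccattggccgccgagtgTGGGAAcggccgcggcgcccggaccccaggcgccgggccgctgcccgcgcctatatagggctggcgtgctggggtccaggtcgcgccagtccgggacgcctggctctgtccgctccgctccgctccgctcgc
Lfng promoter: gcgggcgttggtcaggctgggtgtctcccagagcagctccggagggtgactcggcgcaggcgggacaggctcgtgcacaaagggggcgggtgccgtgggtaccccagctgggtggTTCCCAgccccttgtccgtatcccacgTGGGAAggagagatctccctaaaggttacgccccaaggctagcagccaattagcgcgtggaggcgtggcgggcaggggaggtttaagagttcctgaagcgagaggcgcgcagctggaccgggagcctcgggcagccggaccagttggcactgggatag
Hes6 promoter: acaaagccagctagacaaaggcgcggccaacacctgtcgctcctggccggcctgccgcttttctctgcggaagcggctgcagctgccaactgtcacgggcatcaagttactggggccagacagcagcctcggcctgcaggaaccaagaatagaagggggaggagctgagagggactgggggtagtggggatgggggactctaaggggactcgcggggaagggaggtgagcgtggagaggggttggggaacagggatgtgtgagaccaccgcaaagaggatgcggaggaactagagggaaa

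In Hes5 the copies began 226 and 82 bases before the start, and both carried a G in front (GTGGGAA). In Lfng they began 135 and 108 bases before the start, and 1 of the 2 carried that G. Among 32851 mouse promoters of this length, 25.6% held TGGGAA at least once, 3.79% held it at least 2 times and 6.38% held GTGGGAA, which contains the shorter motif. None was found in the promoters of Notch1, Notch2, Dll1 or Dll3. A match is a run of letters and was not shown here to be bound.

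Across the 15 clusters, Notch1, Notch2, Lfng, Hes1, Hes5 and Hey1 had their highest level in an AP or Astro cluster. Dll3, Mfng and Hes6 had theirs in BP.late, and Dll1 was spread over AP, BP and N1d clusters. The first set was not confined to AP and Astro. Hey1 was higher in BP.early (46.4 CPM) and N1d.early (46.3 CPM) than in AP.mid1 (42.4 CPM) and AP.late (37.4 CPM). Hes5 had 23.2 CPM in BP.early and 22.0 CPM in AP.mid1. These levels are described and not tested, because the authors made the clusters from the expression of the same cells.

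**Figure D1:**
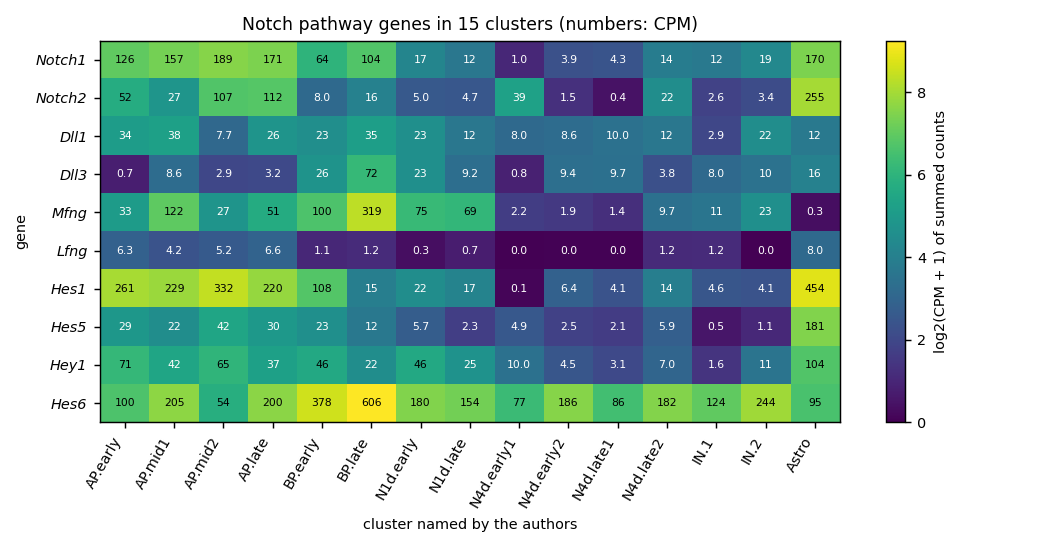
Level of each gene (rows) in each cluster (columns), as CPM of counts summed over the cluster's cells; colours give log2(CPM + 1) and the printed numbers CPM. Hes1 reads 454 CPM in Astro and 332 CPM in AP.mid2, while Hes6 reads 606 CPM in BP.late and stays at 77.4 CPM or more in the neuron clusters.

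Notch1, a receptor of dividing progenitors, stood at 126 to 189 CPM in the 4 AP clusters and at 170.3 CPM in Astro. It was lower in BP.early (64.3 CPM) and BP.late (104 CPM), and lay between 1.02 and 19.0 CPM in the 8 neuron and interneuron clusters. Cluster levels pool days and times: at 24 h alone, Notch1 averaged 59.7 CPM in BP.late and 83.7 CPM in BP.early, lower in BP.late on all 3 days compared. Notch2, the second receptor, was highest in Astro at 255 CPM and reached 112 CPM in AP.late and 107 CPM in AP.mid2. AP.mid1 had only 27.0 CPM of Notch2, so this receptor ranged more widely over the AP clusters than Notch1 did. N4d.early1 had 38.6 CPM, but only 6.45% of its 31 cells had a Notch2 count, against 43.9% of AP.mid1 cells (not thinned).

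The share of cells with a count gave the same picture for Notch1, with every cell thinned to 100000 counts to equalise depth, which left out 122 shallower cells. A Notch1 count was found in 74.9% of AP cells (95% Clopper-Pearson interval 71.8% to 77.9%) and 50.9% of BP cells (44.1% to 57.7%). It was found in 12.9% of N1d cells (10.3% to 15.8%), 8.68% of N4d cells (6.69% to 11.0%), 14.5% of IN cells (10.3% to 19.7%) and 66.7% of Astro cells (53.7% to 78.0%). The intervals take each cell as a draw, pooled over days and times, so they leave out the spread between days, animals and runs. Reads from outside the cell were not measured. Without thinning the shares were 85.1% of AP, 57.9% of BP, 24.5% of N1d and 13.4% of N4d cells.

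The ligands did not follow the receptors. Dll1, the ligand that activates Notch on neighbouring cells, was found in 25.3% of AP cells (22.3% to 28.5%) and 23.9% of BP cells (18.4% to 30.0%), against 16.1% of N1d and 7.24% of N4d cells, all thinned. Its level reached 37.5 CPM in AP.mid1, 35.4 CPM in BP.late and 33.7 CPM in AP.early, but 7.69 CPM in AP.mid2. Dll3, a divergent Delta protein that acts inside the cell that makes it, was highest in BP.late at 71.9 CPM. It stood at 25.9 CPM in BP.early and 23.2 CPM in N1d.early, and at 0.708 to 8.56 CPM in the AP clusters.

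The fringe genes went apart. Mfng stood at 319 CPM in BP.late, 122 CPM in AP.mid1 and 100.5 CPM in BP.early, and at 0.279 CPM in Astro. Lfng was low throughout, with 4.19 to 6.61 CPM in AP clusters, 8.004 CPM in Astro and at most 1.23 CPM elsewhere. Lfng failed the filter on low counts in every main fit, so it was not among the members tested there.

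Among the transcription factors, Hes1, Hes5 and Hey1, which Notch is known to activate, were highest in Astro at 454, 181 and 104.5 CPM. The 54 astrocytes of E15 at 96 h, which make up most of that cluster, had 424 CPM of Hes1, 174 CPM of Hes5 and 123 CPM of Hey1, against 163, 22.5 and 41.0 CPM in the AP cells of E15 at 1 h. In the AP cells of E15 at 24 h the levels were 325 CPM of Hes1, 60.5 CPM of Hes5 and 37.0 CPM of Hey1. In AP clusters Hes1 lay between 220 and 332 CPM and Hes5 between 22.0 and 42.1 CPM. Hes6, a relative of Hes1 that antagonises it, was highest at 606 CPM in BP.late, where Hes1 stood at 14.6 CPM, and 378 CPM in BP.early, where Hes1 stood at 108 CPM. Its lowest level was 54.0 CPM in AP.mid2. Hes6 was also found in 59.2% of N4d cells (55.4% to 62.9%) and 50.9% of IN cells (44.3% to 57.4%) after thinning, against 86.0% of BP cells and 55.6% of AP cells. It was the only member above 40 CPM in any N4d or IN cluster.

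The genes whose levels ran most like each member were taken over 25 sums of a class in 1 condition, each of at least 20 cells, among 10632 genes. These correlations of log2(CPM + 1) share libraries and class make-up and are given as descriptions. Notch1 ran closest to Etl4, Pax6 and Sox21 (r = 0.955, 0.950 and 0.941), and Hes1 to Nes, Pla2g16 and Zfp36l1 (r = 0.953, 0.944 and 0.933). Pax6 and Nes are standard markers of neural progenitors. Notch2 ran closest to Ak3 (r = 0.930), Gnai2 and Sfrp1, Lfng to Sox9 (r = 0.892), Notch3 and Sfr1, Hes5 to Ttyh1 (r = 0.893), Wdsub1 and Gja1, and Hey1 to Fgfr3 (r = 0.883), Pnp and Pigs. Hes6 ran closest to Neurod4 (r = 0.786), a proneural factor of basal progenitors, then Ebf3 and Nfatc2. Mfng ran closest to Cdk4 (r = 0.886), Rpl7a and Nono, Dll1 to Ece2 (r = 0.858), Socs4 and Lsm14a, and Dll3 to Lypd6 (r = 0.744), Pla2g6 and Ptpn9.

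At 24 h after labelling AP, BP and N1d cells were present together on each of the 4 days, which allows the classes to be compared within a day. BP cells had less Notch2, Lfng, Hes1, Hes5 and Hey1 than AP cells on all 4 days, and more Dll3, Mfng and Hes6 on all 4 days. Without the cell richest in the gene in each sum, a setting chosen after seeing the data, Lfng and Hey1 were lower on 3 of 4 days and the other 6 genes kept their direction on all 4. Over 8929 genes averaging at least 10 CPM over both classes, 10.1% were higher and 10% were lower in BP on every day. Lfng fell below that level and is not among them. The shares over all genes in the class and cluster comparisons below use the same cut. The AP sums held 14, 22, 32 and 44 cells at E12 to E15 and the BP sums 78, 47, 8 and 35 cells. The ratios are descriptions, with a pseudocount of 1 CPM, and are given as means ± SD over 4 days.

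Hes1 stood at 121, 53.2, 10.7 and 16.6 CPM in BP cells of E12 to E15, against 316, 236, 341 and 325 CPM in AP cells. The groups did not overlap, and the log2 ratio averaged -3.15 ± 1.66, or -3.99 without the richest cells. How many of all genes separate in this way was not measured, here or in the comparisons below. Notch2 stood at 8.11, 9.73, 30.7 and 9.23 CPM in BP cells, against 81.2, 67.3, 117 and 129 CPM in AP cells (log2 ratio -2.85 ± 0.75). The groups were apart on every day, although 1 cell gave 95.9% of the Notch2 counts in BP at E14, and without the cell richest in Notch2 in each sum the mean ratio was -4.08. Hes5 was at 21.3, 23.5, 2.24 and 1.55 CPM in BP cells, against 63.0, 64.3, 30.6 and 60.5 CPM in AP cells (log2 ratio -2.70 ± 1.52), again without overlap.

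Hey1 averaged 27.1 ± 32.6 CPM in BP cells and 70.1 ± 47.1 CPM in AP cells, and the groups overlapped between days although BP was lower within each day. Lfng averaged 0.713 ± 0.395 CPM in BP cells and 9.02 ± 3.54 CPM in AP cells. Notch1 was lower in BP on 3 of 4 days, at 48.4, 49.3, 175 and 113 CPM in BP cells against 114, 214, 113 and 181 CPM in AP cells. The exception was E14, the day with 8 BP cells. Without the richest cell of each sum, Notch1 was lower in BP on 2 of 4 days and higher on 2. Its mean log2 ratio was then -0.61 ± 1.10, against -0.84 ± 1.14 with all cells.

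Hes6 showed the opposite order, with 498, 399, 667 and 563 CPM in BP cells, against 253, 166, 199 and 128 CPM in AP cells. Every BP value exceeded every AP value, and the log2 ratio averaged 1.53 ± 0.51. Mfng stood at 168, 195, 208 and 270 CPM in BP cells, against 59.4, 108, 49.2 and 10.7 CPM in AP cells (log2 ratio 2.23 ± 1.61, or 3.39 without the richest cells), also without overlap. Dll3 averaged 28.2 ± 14.2 CPM in BP cells and 5.33 ± 6.52 CPM in AP cells, but 1 cell gave 86.7% or more of the AP counts on each day. Dll1 was higher in BP on 3 of 4 days, with means of 42.9 ± 27.1 CPM in BP cells and 17.7 ± 10.7 CPM in AP cells. Markers moved with these ratios by the design of the classes: the BP list summed to 1925, 2935, 5144 and 3709 CPM in BP cells and to 645, 617, 1112 and 731 CPM in AP cells.

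In N1d cells, the young neurons of the same collection, 6 members were lower than in BP cells on all 4 days: Notch1, Notch2, Dll1, Mfng, Hes5 and Hes6. Without the richest cell of each sum, Notch1, Mfng and Hes6 were lower on all 4 days, and Notch2, Dll1 and Hes5 on 3 of 4, the mean log2 ratio of Notch2 being -0.39 in place of -1.50. Over 8820 genes averaging at least 10 CPM over both classes, 14.8% were lower in N1d on every day and 17.6% higher. Notch2 and Hes5 fell below that level and are not among them. Notch1 stood at 14.7, 15.5, 7.45 and 15.1 CPM in N1d cells, against 48.4, 49.3, 175 and 113 CPM in BP cells. N1d was far below BP on each day, with a log2 ratio of -2.61 ± 1.31. Hes6 averaged 163 ± 46.1 CPM in N1d cells and 532 ± 113 CPM in BP cells, and Mfng 72.2 ± 31.2 CPM in N1d cells and 210 ± 42.8 CPM in BP cells, both without overlap. Hey1 did not follow Hes5 here: it stood at 43.6, 43.7, 29.8 and 18.7 CPM in N1d cells, against 72.0, 30.1, 0 and 6.39 CPM in BP cells, and N1d was higher on 3 of 4 days.

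**Figure D2:**
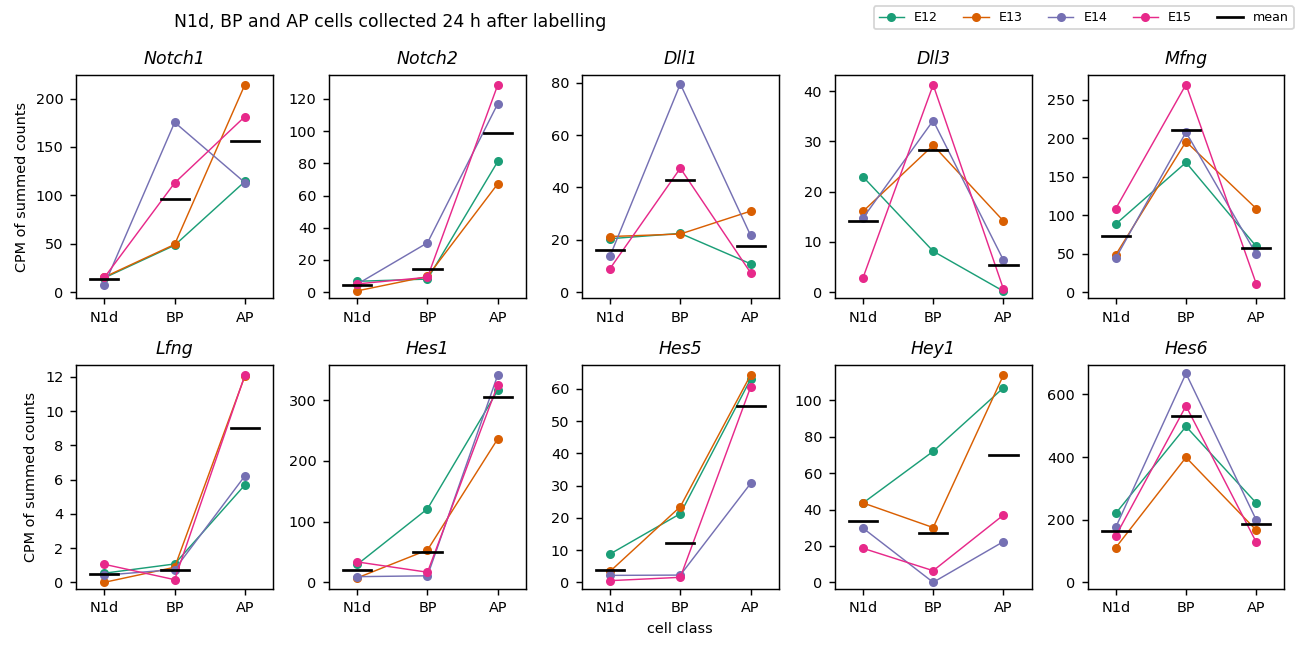
CPM of each gene in N1d, BP and AP cells collected at 24 h, with 1 point and line per injection day and a bar at the mean of the 4 days. Mfng and Hes6 peak in BP on every day, and Notch2, Hes1 and Hes5 are highest in AP on every day.

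The BP class was itself uneven. On the 3 days with at least 9 cells of each cluster, BP.late had 14, 22 and 26 cells and BP.early 64, 25 and 9 cells at E12, E13 and E15. This split, and that of the AP clusters below, were chosen after the values were seen. Hes1 stood at 9.37, 0.348 and 6.95 CPM in BP.late, against 140, 91.7 and 41.4 CPM in BP.early, and Mfng at 402, 422 and 348 CPM in BP.late, against 128, 30.0 and 68.5 CPM in BP.early. Neither gene overlapped, and the log2 ratios were -4.10 ± 1.87 for Hes1 and 2.58 ± 1.08 for Mfng. Hes6 differed in the same direction as Mfng on each day (log2 ratio 0.98 ± 0.12), as did Dll3 (1.79 ± 0.93), while Hes5 (-2.78 ± 1.39) and Notch1 (-0.45 ± 0.08) differed in the direction of Hes1. Without the richest cells the ratio of Hes1 was -4.86 and that of Dll3 was 0.98, higher on 2 of 3 days. All 3 days were higher for 15.8% of 8693 genes and lower for 16.3%. The BP marker list summed to 3521, 4080 and 4109 CPM in BP.late and to 1646, 2100 and 2683 CPM in BP.early.

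AP cells collected at 1 h also differed among clusters. At E13, E14 and E15 the cluster AP.mid2 (52, 33 and 62 cells) had less Dll1, Mfng and Hes6 than AP.mid1 (126, 63 and 27 cells) on each of the 3 days. It had more Notch1, Notch2, Hes5 and Hey1 on each of the 3 days. Among 8627 genes, 14.6% were lower and 19.9% higher in AP.mid2 on all 3 days.

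Dll1 stood at 17.6, 0.746 and 1.18 CPM in AP.mid2, against 49.7, 23.7 and 26.9 CPM in AP.mid1 (log2 ratio -2.98 ± 1.33). Hes6 stood at 17.1, 21.3 and 35.8 CPM in AP.mid2, against 216, 199 and 93.2 CPM in AP.mid1 (-2.70 ± 1.19). Mfng stood at 22.0, 19.6 and 14.0 CPM in AP.mid2, against 120, 110 and 121 CPM in AP.mid1 (-2.62 ± 0.35). In none of these 3 genes did the clusters overlap. On the other side, Hes5 averaged 41.1 ± 5.17 CPM in AP.mid2 and 18.8 ± 10.8 CPM in AP.mid1, and Notch2 averaged 106 ± 52.9 CPM in AP.mid2 and 39.6 ± 35.0 CPM in AP.mid1. Without the richest cells the ratio of Mfng was -4.09, and Hes5 was higher in AP.mid2 on 2 of 3 days. Hes1 was higher in AP.mid2 on 2 of 3 days, with 518, 179 and 243 CPM in AP.mid2 against 242, 242 and 120 CPM in AP.mid1.

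AP.late (15, 18 and 124 cells) differed from AP.mid2 with the opposite sign in Dll1, Mfng, Hes6, Hes5 and Hey1. Dll1 stood at 53.7, 33.995 and 23.5 CPM in AP.late and 17.6, 0.746 and 1.18 CPM in AP.mid2. Hes6 stood at 296, 182 and 204 CPM in AP.late and 17.1, 21.3 and 35.8 CPM in AP.mid2. AP.late was above AP.mid2 throughout for both genes, although 1 cell gave 86.4% of the Dll1 counts of AP.late at E14. The Dll1 ratio was 3.12 ± 1.42 with all cells and 2.24 without the richest cells, and that of Mfng was 1.72 ± 1.07 and 2.47. Hes1 (log2 ratio -0.80 ± 0.16), Hes5 (-1.86 ± 0.52) and Hey1 (-1.64 ± 1.15) were lower in AP.late on all 3 days, where 16.4% of 8904 genes were lower and 15.9% higher. BP markers moved with the ligand: they summed to 1095, 1053 and 660 CPM in AP.late, 180, 188 and 242 CPM in AP.mid2, and 835, 897 and 847 CPM in AP.mid1. AP markers were similar, at 4017, 5155 and 7431 CPM in AP.late, 4102, 5630 and 7122 CPM in AP.mid2 and 4207, 4972 and 5948 CPM in AP.mid1. The part of the BP programme in the Dll1, Mfng and Hes6 values was not tested.

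**Figure D3:**
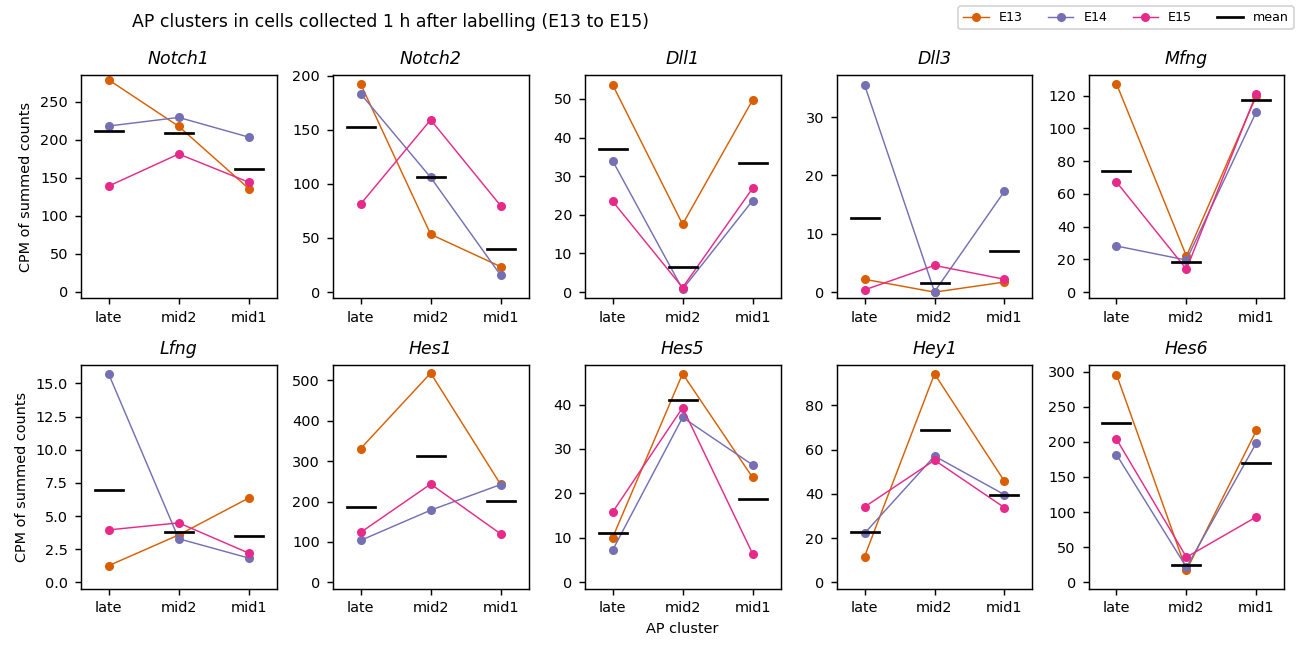
CPM of each gene in 3 AP clusters at 1 h, with 1 point and line per injection day from E13 to E15 and a bar at the mean. Dll1, Mfng and Hes6 dip in AP.mid2 on every day, where Hes5 and Hey1 peak.

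AP cells at 1 h were also split by a Dll1 count, without regard to cluster. Over all times a Dll1 count was found in 19.0% of AP.mid2 cells and 38.6% of AP.mid1 cells, so the split and the clusters overlap. At E12 to E15, 77, 77, 33 and 65 AP cells had a Dll1 count and 104, 124, 87 and 148 had none. The split uses a measured count, so the values are described and not tested. Of 8837 other genes averaging at least 10 CPM, 7.12% were higher and 8.66% lower in cells with Dll1 on all 4 days. Of the other 9 members 2 were higher and 3 lower on all 4 days. Dll3 and Lfng, which were neither, fell below 10 CPM and are not among the 8837 genes. Hes6 stood at 149, 211, 207 and 205 CPM in cells with a Dll1 count, against 63.4, 125, 116 and 106 CPM in cells without. Mfng stood at 67.6, 138, 84.2 and 71.1 CPM in cells with a Dll1 count, against 17.4, 53.5, 62.5 and 48.2 CPM in cells without. Cells with Dll1 were higher for both genes on all 4 days, by 0.94 ± 0.21 for Hes6 and 1.06 ± 0.70 for Mfng on the log2 scale.

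Hes1 stood at 259, 261, 129 and 106 CPM in cells with a Dll1 count, against 267, 373, 227 and 188 CPM in cells without. It was lower in cells with Dll1 on all 4 days (log2 ratio -0.55 ± 0.37), with little difference at E12. Hes5 (-0.54 ± 0.55) and Notch2 (-0.54 ± 0.43) were also lower on all 4 days, Hes5 with little difference at E12 (-0.033) and E13 (-0.11). Notch1 was even, at 163 ± 30.5 CPM in cells with and 162 ± 59.6 CPM in cells without. Cells with a Dll1 count were somewhat deeper, with median totals of 328623, 350982, 394508 and 303912 counts against 301810, 322778, 345825 and 296634 in cells without. After thinning, Hes6 and Mfng remained higher and Hes1 lower on all 4 days, and Hes5 and Notch2 were lower on 3 of 4. BP markers summed to 838 ± 288 CPM in cells with a Dll1 count and 382 ± 165 CPM in cells without, higher on all 4 days. AP markers summed to 4495 ± 1565 CPM in cells with and 4936 ± 2039 CPM in cells without.

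**Figure D4:**
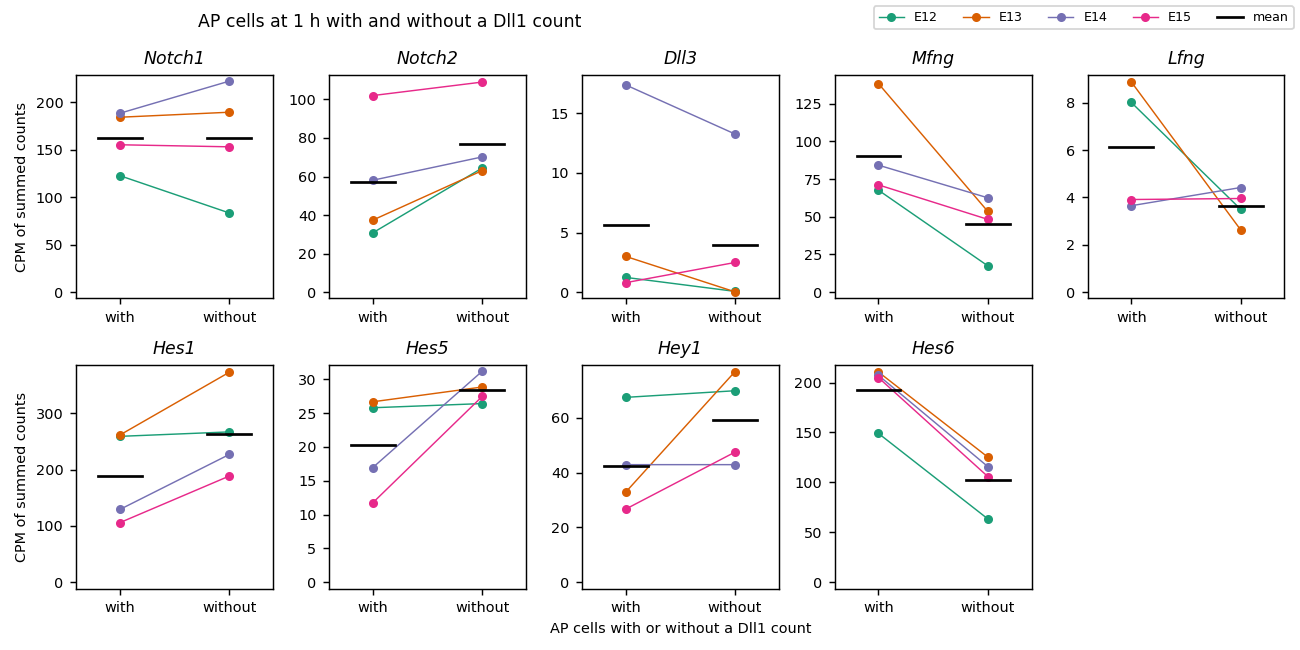
CPM of the other members in AP cells at 1 h with a Dll1 count and without one, with 1 point and line per injection day and a bar at the mean of the 4 days. Mfng and Hes6 are higher and Hes1, Hes5 and Notch2 lower in the cells with a Dll1 count on each day. The difference is small for Hes1 at E12 and for Hes5 at E12 and E13.

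Time after labelling was tested on sums that pooled the AP, BP, N1d and N4d classes, 1 per condition, with edgeR's quasi-likelihood test and Benjamini-Hochberg adjustment over 10210 genes. Both contrasts use the 24 h sums, so they are not independent. Of the 9 members that passed the filter (at least 10 CPM in at least 3 sums), 3 fell at 24 h against 1 h and none rose, where 7.76% of all tested genes fell and 11.4% rose. At 96 h against 24 h, 5 of 9 members fell and none rose, where 12.5% of all genes fell and 11.7% rose. The median log2 change of the 9 members was -0.47 at 24 h against 1 h and -1.49 at 96 h against 24 h, beside -0.003 and -0.03 for all genes. These sums mix classes: most cells were AP in the 1 h sums, N1d in the 24 h sums and N4d in the 96 h sums, so a fall in the sum and a change of class make-up cannot be told apart in it. The cell titles hold a code, called the run code here, whose meaning they do not state. Each run code belonged to 1 collection time, so time and run code cannot be told apart in any contrast between times, that of AP cells below included.

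Notch1 stood at 98.9, 181, 201 and 146 CPM at 1 h in E12 to E15, at 33.1, 44.4, 37.9 and 75.9 CPM at 24 h, and at 12.8, 17.3, 8.34 and 26.6 CPM at 96 h. No 2 times overlapped. The log2 change was -1.78 ± 0.31 (SE) at 24 h against 1 h (adjusted p = 0.00149, edgeR) and -1.49 ± 0.31 at 96 h against 24 h (adjusted p = 0.00409, edgeR). Notch2 averaged 64.1 ± 22.1 CPM at 1 h, 22.3 ± 13.4 CPM at 24 h and 7.75 ± 3.58 CPM at 96 h (SD, n = 4 days). It changed by -1.63 ± 0.38 at 24 h against 1 h (adjusted p = 0.00962, edgeR) and by -1.37 ± 0.38 at 96 h against 24 h (adjusted p = 0.0192, edgeR). The later Notch2 change missed the threshold without the E14 or the E15 sum of 24 h (adjusted p = 0.0553 and 0.0537, edgeR).

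Hes1 stood at 254, 320, 182 and 135 CPM at 1 h, at 80.2, 42.1, 85.3 and 103 CPM at 24 h, and at 13.4, 17.5, 17.2 and 11.5 CPM at 96 h. The 3 times were separate on all days. It changed by -1.51 ± 0.32 at 24 h against 1 h (adjusted p = 0.00531, edgeR) and by -2.35 ± 0.32 at 96 h against 24 h (adjusted p = 0.000314, edgeR). Hey1 and Mfng did not pass at 24 h against 1 h and fell at 96 h against 24 h. Hey1 averaged 51.5 ± 15.05 CPM at 1 h, 38.3 ± 17.4 CPM at 24 h and 6.22 ± 3.51 CPM at 96 h, a change of -2.48 ± 0.48 at 96 h against 24 h (adjusted p = 0.00284, edgeR). Mfng averaged 74.3 ± 20.7 CPM at 1 h, 92.6 ± 29.9 CPM at 24 h and 12.05 ± 5.13 CPM at 96 h, a change of -2.91 ± 0.36 at 96 h against 24 h (adjusted p = 0.000173, edgeR).

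The other members passed neither test. Hes6 averaged 154 ± 37.2 CPM at 1 h, 232 ± 60.8 CPM at 24 h and 180 ± 70.8 CPM at 96 h, with log2 changes of 0.60 ± 0.28 (adjusted p = 0.155, edgeR) and -0.35 ± 0.28 (adjusted p = 0.390, edgeR). Hes5 averaged 25.8 ± 3.32 CPM at 1 h, 14.0 ± 3.34 CPM at 24 h and 4.82 ± 7.37 CPM at 96 h. Its 96 h values were 3.15, 0.0353, 0.428 and 15.7 CPM, and without the E15 sum of 96 h the later change was -3.92 and passed (adjusted p = 0.0178, edgeR). Dll1 averaged 27.4 ± 11.9, 19.3 ± 2.73 and 9.55 ± 4.29 CPM at 1, 24 and 96 h, with a later change of -0.97 ± 0.38 (adjusted p = 0.0785, edgeR). Without the E13 sum of 96 h it passed, at -1.26 (adjusted p = 0.0399, edgeR). Dll3 averaged 11.9 ± 10.8, 14.7 ± 3.85 and 12.8 ± 5.62 CPM at the 3 times. Lfng, not in the main fit, averaged 4.49 ± 0.779, 1.97 ± 1.14 and 0.411 ± 0.618 CPM.

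The classes entering the sums bear on both counts. With the leading class of each time alone, all 3 members that fell at 24 h against 1 h did so again, and at 96 h against 24 h 3 of 9 fell (Notch1, Mfng and Hey1). There Notch2 had a log2 change of 0.41 (adjusted p = 0.663, edgeR) and Hes1 of -1.71 (adjusted p = 0.0874, edgeR). With IN and Astro cells added to the sums, 2 of 9 fell at 24 h against 1 h, since Hes1 missed the threshold with a log2 change of -1.66 (adjusted p = 0.054, edgeR). With the same cells added, 2 of 9 fell at 96 h against 24 h (Notch1 and Mfng), and Notch2, Hes1 and Hey1 lost the call (adjusted p = 0.718, 0.200 and 0.111, edgeR).

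**Figure D5:**
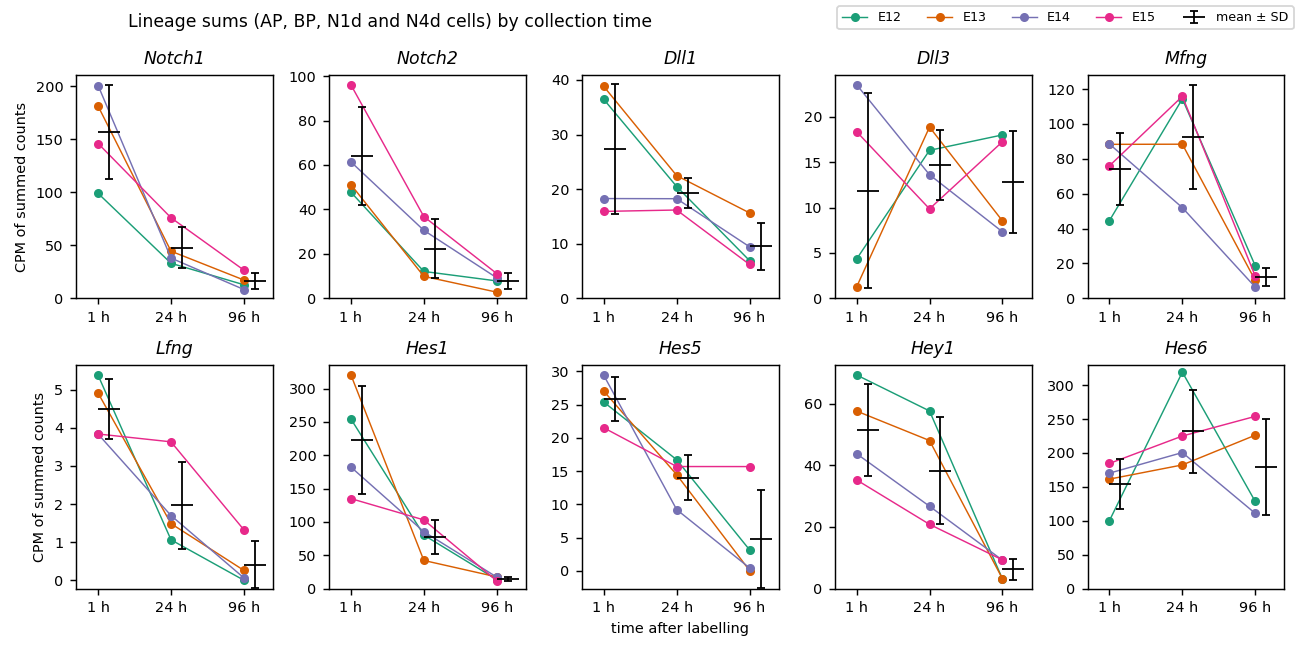
CPM of each gene in sums pooled over the AP, BP, N1d and N4d classes at 1, 24 and 96 h after labelling, with 1 line per injection day and the mean ± SD of the 4 days in black. Notch1, Notch2 and Hes1 step down at both intervals, Mfng and Hey1 at the second, and Hes6 stays above 100 CPM throughout.

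AP cells that remained AP at 24 h were compared with AP cells at 1 h, with the age at collection in the fit. None of 8 members tested passed, where 0.0107% of all 9346 genes did. An unadjusted p below 0.05 was found for 1 of the 8 members and for 967 of all genes. DESeq2 called none either. That member was Hes5, which stood at 63.0, 64.3, 30.6 and 60.5 CPM at 24 h and 26.1, 28.0, 26.9 and 22.5 CPM at 1 h. Every 24 h value exceeded every 1 h value, yet the log2 change of 1.17 ± 0.45 did not pass (adjusted p = 0.421, edgeR). Notch1 averaged 156 ± 50.5 CPM at 24 h and 164 ± 47.9 CPM at 1 h, with a change of -0.20 ± 0.32. Hes1 averaged 305 ± 46.9 CPM at 24 h and 238 ± 73.6 CPM at 1 h, with a change of 0.50 ± 0.29. The AP sums of 24 h rest on 14 to 44 cells.

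Injection day was tested as a slope in log2 units per embryonic day within 1 class per time (AP for 1 h, N1d for 24 h, N4d for 96 h), over 10195 genes. None of 9 members passed for AP (1.03% of all genes did), N1d (0.383%) or N4d (0.049%), for the mean of the 3 slopes (1.01%) or for the differences between them (0.226%). With an unadjusted p below 0.05 there were 0, 1, 2, 0 and 2 members. Over all 10195 genes the same counts were 1039, 1316, 796, 1559 and 1001. DESeq2 called 1 for N4d and 1 for the differences, Hes1 both times, and none for the others. The shares of all genes that DESeq2 called are not given here.

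In AP at 1 h, the levels on E12, E13, E14 and E15 were as follows. Dll1 had 36.5, 39.4, 17.7 and 16.5 CPM, higher on the first pair of days than on the second (slope -0.48 ± 0.31). Notch2 had 49.0, 53.0, 66.5 and 107 CPM, ordered by day (0.36 ± 0.35), and Hey1 had 68.8, 59.6, 42.9 and 41.0 CPM, ordered the other way (-0.29 ± 0.18). Notch1 had 101, 187, 212 and 154 CPM, and Hes1 had 263, 329, 197 and 163 CPM. The thinned share of AP cells with a Hes5 count was 54.2%, 38.04%, 29.8% and 24.5%, although its level stayed between 22.5 and 28.0 CPM. None of the slopes of these levels passed the test, the shares were not tested, and at 1 h E12 and E14 shared a run code, as did E13 and E15.

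In N4d at 96 h, Hes1 had 0.892, 4.02, 9.88 and 11.9 CPM on E12 to E15. The values are ordered by day, but 1 cell gave 70.0% to 78.0% of the Hes1 counts on the first 3 days. Its slope was 1.20 ± 0.36 (adjusted p = 0.375, edgeR), and DESeq2 called it (adjusted p = 0.00116). Hey1 had 3.49, 2.60, 7.19 and 8.51 CPM in N4d, with a slope of 0.50 ± 0.18 (adjusted p = 0.498, edgeR), and 43.6, 43.7, 29.8 and 18.7 CPM in N1d, with a slope of -0.42 ± 0.19 (adjusted p = 0.381, edgeR). The difference between its slopes did not pass (adjusted p = 0.280, edgeR). At 24 and 96 h, E12 and E13 shared a run code and E14 and E15 another, so an early to late step and the run code cannot be told apart.

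Of 57 other Notch pathway genes on a list of receptors, ligands, processing enzymes, nuclear partners and targets, 53 were in the table and 42 were tested. At 24 h against 1 h, 2 rose and 5 fell, and at 96 h against 24 h, 7 rose and 3 fell. The shares over all genes were 11.4% higher and 7.76% lower in the first contrast, and 11.7% higher and 12.5% lower in the second. The median log2 changes of the 42 were -0.17 and -0.02. No gene of the list passed for any day slope or in AP at 24 h against 1 h.

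At 24 h against 1 h the genes that passed with the smallest p were Dtx4 (-2.12 ± 0.31), Fbxw7 (-0.92 ± 0.15), Dtx1 (3.02 ± 0.62), Mib1 (-0.90 ± 0.24), Dner (1.55 ± 0.45) and Kat2a (-0.84 ± 0.25), on the log2 scale with SE (adjusted p from 0.000469 to 0.0294, edgeR). Mib1 is the ubiquitin ligase that lets Delta ligands be pulled into the sending cell, and Dner is a neuronal transmembrane protein with Delta-like repeats. At 96 h against 24 h they were Fbxw7 (1.97 ± 0.16), Dtx4 (3.47 ± 0.32), Hdac1 (-1.31 ± 0.26), Nrarp (-2.08 ± 0.43), Rbpj (-0.72 ± 0.16) and Adam10 (0.73 ± 0.22), with adjusted p from 1.75e-05 to 0.0291 in edgeR. Nrarp is a Notch target that feeds back on the pathway, Rbpj its DNA-binding partner, Adam10 a protease that cuts the receptor, and Fbxw7 the adaptor that sends its active fragment to degradation. Dtx4 and Fbxw7 fell in the first contrast and rose in the second.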

How the data were processed

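Single cells were captured on a C1 HT chip and read with SMART-Seq v4 and Nextera XT on a HiSeq2500, per the labels' protocols. The authors deposited raw whole-number counts for each gene in each cell, not normalized. GRCm38, TopHat2 2.0.13 and UMI-tools are named in the submitters' processing notes; the counter, annotation and cell filters are not given in the sources used here. Counts were treated as reads. No animal is named, so cells were summed per condition and class, and cells were not replicates in any fit. The intervals on shares of cells are over cells. Sums of 12 conditions were fitted with edgeR 4.0.16 quasi-likelihood (TMM, limma 3.58.1 loaded, R 4.3.3): collection time plus injection day (8 residual degrees of freedom), a level and slope per class (6), and AP at 2 times with age at collection (5). The filter was 10 CPM in at least 3 sums and the threshold 0.05 after Benjamini-Hochberg over all genes tested. Common biological coefficients of variation were 44.1%, 46.3% and 64.8%. DESeq2 1.42.0 and its size factors, no filter and 50 CPM, equal weight per cell, each sum left out, other cells summed, run code as a block and thinning to 100000 counts were alternatives; leaving out the richest cell was added after seeing the data. The fits were tested on simulated data. Python 3.11.15 handled tables. Named genes were the 10 members, for the pathway list up to 6 past the threshold by smallest p, and for each member the 3 genes most like it. Members and lists were chosen with earlier results of these data known.

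Summed counts per condition were 52.3 to 99.0 M. Marker lists for red blood cells had 0 of 4 genes in the table; microglia (3 of 5) stayed at 2.14 CPM or less per class, endothelial cells (1 of 6) at 7.50 CPM or less, and Cajal-Retzius cells (2 of 4) at 156.5 CPM or less. Clusters were the authors' own, doublets were not removed here, and promoters came from RefSeq. Gene positions on the annotation are not used for any value.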

Additional observations from a re-analysis of the deposited data

Results flagged for a closer look

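Of 60 groups of 4 injection days (10 genes in AP at 1 h, AP, BP and N1d at 24 h, N4d and IN at 96 h), 7 had a day far from the other 3, and the nominal chance rate of this rule is about 1 group in 20, not measured here. In AP cells at 1 h, Dll3 stood apart at E14 with 14.5 CPM, the other days lying between 0.599 and 1.96 CPM. In AP cells at 24 h, Hes5 stood apart at E14 with 30.64 CPM, against 60.5 to 64.3 CPM on the other days. In BP cells at 24 h, Notch2 at E14 reached 30.65 CPM, against 8.11 to 9.73 CPM, in a sum of 8 cells of which 1 gave 95.9% of the counts. In N1d cells at 24 h, Notch1 at E14 had 7.446 CPM, against 14.7 to 15.5 CPM. In IN cells at 96 h, Notch2 at E13 had 5.098 CPM against at most 0.319 CPM, Dll3 at E12 had 22.31 CPM against at most 0.744 CPM, and Hes5 at E15 had 2.553 CPM against at most 0.128 CPM. A single cell gave 92.6% of the Notch2 counts and 91.7% of the Hes5 counts in those IN sums.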

How the results depend on the processing

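For 24 h against 1 h, 3 of the members tested fell under 7 of 8 alternatives and with any 1 sum left out. Among those 7, the main class of each time only sets AP against N1d cells, so class and time coincide in it. With all cells summed 2 fell, and Hes1 missed the threshold (adjusted p = 0.054, edgeR). The members tested varied with the filter: Lfng entered with no filter, and Dll1, Dll3 and Hes5 did not reach 50 CPM in any of these sums. For 96 h against 24 h, 5 fell, against 2 with all cells summed, 3 with the main class of each time only and 4 to 6 with 1 sum left out. With the main class only, Notch2 (0.41), Hes5 (0.15) and Hes6 (0.035) reversed, and with equal weight per cell Notch2 was not called. For the N4d slope DESeq2 called 1 member (Hes1) where edgeR called 0, and with 1 sum left out the count was 0 to 1, the 1 without E12 at 96 h being Hes5. For the differences between slopes the counts were 1 in DESeq2 (Hes1) and 0 to 1 with 1 sum left out (Hes5, again without E12 at 96 h). In slopes that passed no test, equal weight reversed Notch1 in N1d (0.081), Notch2 in N4d (-0.11) and the mean slope of Hey1 (0.028). Run code as a block reversed Hes1 (-0.11) and Notch1 (0.51) in N1d, Dll1 (0.38), Mfng (0.59), Notch2 (-1.11), Hey1 (-0.071) and Hes5 (-0.41) in N4d, and the mean slope of Mfng (0.26) and Notch2 (-0.77). For AP at 24 h against 1 h, Mfng reversed with no filter (-0.063), with 50 CPM (-0.021) and with injection day in the fit (-0.35), and equal weight reversed Dll1 (0.11) and Notch2 (-0.0072). The cause was not tested. The BP to AP ratio of Notch2 was -4.08 without its richest cells, against -2.85.

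Without thinning, shares were 85.1% of AP, 57.9% of BP, 24.5% of N1d, 13.4% of N4d and 20.6% of IN cells for Notch1, 34.4%, 34.2%, 21.2% and 9.59% of AP, BP, N1d and N4d for Dll1, and 68.3%, 93.0%, 75.5%, 72.2% and 60.9% of AP, BP, N1d, N4d and IN for Hes6. Left-out sums also turned the sign of uncalled values, giving ranges at 24 h against 1 h of Dll3 -0.043 to 1.02, then at 96 h against 24 h of Dll3 -0.74 to 0.055, then for the AP slope of Mfng -0.35 to 0.37, Notch1 -0.17 to 0.52, Hes5 -0.18 to 0.0038 and Hes6 -0.13 to 0.22, then for the N1d slope of Mfng -0.49 to 0.58, Hes1 -0.82 to 1.11, Notch1 -0.48 to 0.0012, Notch2 -0.20 to 1.34 and Hes6 -0.19 to 0.21, then for the N4d slope of Dll1 -0.99 to 0.26, Mfng -1.20 to 0.056, Notch2 -0.042 to 0.71, Hes5 -1.44 to 4.16 and Hes6 -0.033 to 0.31, then for the mean slope of Dll3 -0.12 to 0.53, Mfng -0.35 to 0.13, Hey1 -0.13 to 0.034, Hes5 -0.93 to 0.94 and Hes6 -0.023 to 0.17, then in AP at 24 h against 1 h of Dll1 -0.58 to 0.35 and Mfng -0.47 to 0.21.

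Lfng in all classes, and most members in neurons, had few counts, and their sums often rest on a few cells. Median counts per cell were 332159 in AP, 327178 in N1d and 342051 in N4d. No pairing by animal or replicate was possible, because no label gives a replicate number shared between groups. Injection day was shared, and as a factor, a block by day, it left 3 members falling at 24 h against 1 h and 5 at 96 h against 24 h.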
